A study of Xenopus laevis with 12 samples.

Results

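Heat shock proteins, the chaperonin complex and their partners were examined in whole-body RNA from 3 kinds of living construct built from Xenopus laevis embryonic tissue. Genes were taken by name: the HSP families, the J proteins of the A, B and C classes, the subunits of the cytosolic chaperonin (tcp1 and cct genes), prefoldin, the BAG cochaperones, the heat shock factors and serpinh1. This gave 148 of the 44478 genes in the table, from 95 base names, of which 53 were present as a pair of homeologs on the L and S subgenomes of this allotetraploid frog. The name pattern also took in 4 tcp11-like genes, which are not chaperonin subunits, and 2 members (dnajc5b.S and hspb3.L) had no count in any library.

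The constructs came from animal caps, the prospective ectoderm, cut from embryos at Nieuwkoop and Faber stage 9. Neurobots (NB) were caps in which clumps of neural precursors had been enclosed, made from cap cells that were kept apart for hours before they were allowed to reaggregate. Sham neurobots (SH) received clumps that were reaggregated straight after dissociation, which was meant to keep them from turning neural, and biobots (BB) were caps with nothing implanted. Each group had 4 libraries, each from a pool of bots (12 to 14 for NB, 5 or 6 for SH, 5 to 16 for BB), so that values are pool averages over implant and body together, and fewer cells of a type cannot be told apart from less RNA per cell. Pools of the same bot type need not come from separate clutches, and p-values cover the spread between these pools.

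Chaperones bind proteins that are not folded and keep them from aggregating. HSP70 proteins work in cycles of binding and release that J proteins start and that BAG and HSP110 proteins help to end. HSP90 acts later, on proteins that are nearly folded, such as kinases and receptors. Some members, the constitutive or cognate forms, are made at high levels in every growing cell, and others are switched on by heat shock factors when proteins are damaged. The cytosolic chaperonin, known as TRiC or CCT, stands apart: it is a double ring whose subunits are encoded by tcp1 and the cct genes, and it folds actin and tubulin, which prefoldin hands to it. The mitochondrion and the endoplasmic reticulum (ER) have chaperone sets of their own.

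Library totals lay between 27265034 and 37985824 counts (median 31373707), and members took 1.73% to 2.55% of each. A count of 3 corresponded to 0.0853 to 0.112 CPM (counts scaled to library size), which sets the floor below which a member is not distinguished from absence. The first NB pool and the first BB pool (NB1, BB1) were sequenced as a separate batch, which held no SH pool. Of the 129 members that averaged at least 1 CPM, SH1 was the lowest SH pool in 71 and SH2 the highest in 64, NB3 was the lowest NB pool in 53 and NB1 the highest in 49, and BB1 was the lowest BB pool in 57. The implant left its mark in the marker genes: the neuron list summed to 652 to 1028 CPM in NB, 136 to 148 in SH and 163 to 169 in BB. Neural progenitor markers summed to 89.5 to 247 CPM in NB, 23.4 to 30.6 in SH and 8.64 to 15.98 in BB, and 2 of the 3 that could be tested rose in SH against BB. Markers of ionocytes, a cell type of the larval skin, summed to 28.4 to 569.8 CPM in NB, 556 to 946 in SH and 972.5 to 1155 in BB.

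Levels of different members were compared as FPKM, which divides by gene length as well as depth, since CPM grows with gene length. The most abundant member was hspa1l.S, on chromosome 7S (54100728 to 54107045, minus strand), which is listed with hsc70 among its synonyms and so carries the name of the constitutive cytosolic HSP70. Its mean over 12 libraries was 4048 FPKM, and only 14 of all genes in the table stood higher. Next came hspa8.L, the other cognate HSP70 (1152 FPKM), then hsp90ab1.S, the constitutive cytosolic HSP90 (400.3 FPKM), dnaja2.S, a J protein that serves cognate HSP70 (181 FPKM), and the chaperonin subunit cct5.S (177 FPKM). In all, 14 members averaged 100 FPKM or more, 55 between 10 and 100, 47 between 1 and 10, and 32 less than 1. The first 3 alone took 59.3% to 70.1% of the counts of all members in every library.

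None of hspa1l.S, hspa8.L and hsp90ab1.S was called in any comparison. In FPKM, hspa1l.S was at 4476, 5742, 2969 and 3172 in NB, 2545, 5597, 3558 and 3343 in SH, and 4264, 3847, 4803 and 4264 in BB. The spread within NB and within SH was wider than any difference between the group means. For hspa8.L the pools read 1330, 1743, 876.9 and 1031 FPKM in NB, 663.6, 1566, 1006 and 906.2 in SH, and 1168, 1097, 1340 and 1094 in BB, with the same pools at the extremes (NB2 and SH2 high, SH1 low). The fitted log2 fold changes of hspa1l.S were -0.09 ± 0.26 (SE) for NB against BB, 0.08 ± 0.34 for NB against SH and -0.17 ± 0.24 for SH against BB, with adjusted p of 0.82, 0.874 and 0.696. Differences of the size of these standard errors were therefore not detectable. For hsp90ab1.S the pools were at 559.7, 387.5, 396.4 and 397.3 FPKM in NB, 364.8, 376.6, 359.7 and 289.8 in SH and 492.3, 383, 415.3 and 381 in BB, with NB1 and BB1 above the rest of their groups.

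**Figure D1:**
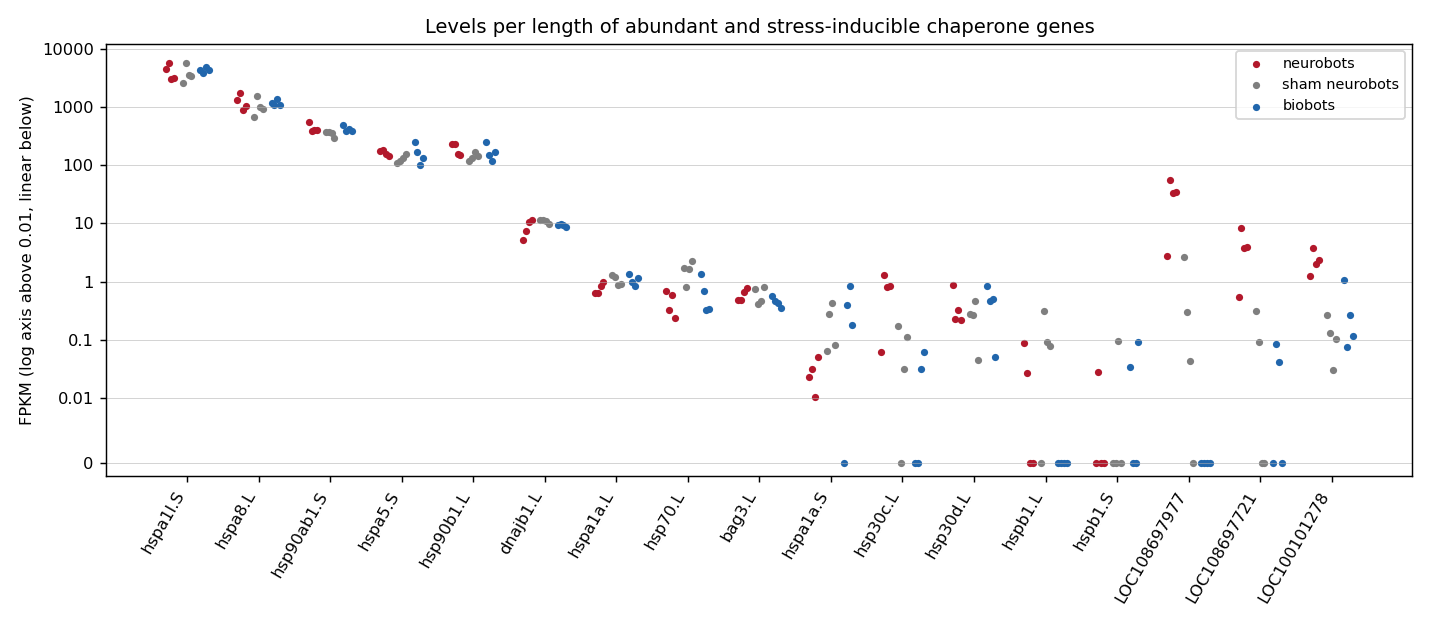
FPKM (log axis above 0.01, linear below) of abundant and stress-inducible chaperone genes, 1 point per library, with neurobots on the left of each cluster, sham neurobots in the middle and biobots on the right. The constitutive hspa1l.S, hspa8.L and hsp90ab1.S lie between 289.8 and 5742 FPKM in every library, whereas hspa1a, hsp70.L, bag3.L and hspb1 stay near or below 2 FPKM; the 3 entries at the right are hsp30-like genes without a symbol, of which LOC108697977 reached 56.3 FPKM in NB2 and was at 0 in all BB pools.

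Fold changes were fitted over all genes with edgeR's quasi-likelihood test on the 8 libraries of a comparison, and a gene was called at a Benjamini-Hochberg adjusted p under 0.05 over every gene tested. In NB against BB, 136 members had enough counts to be tested and 38 were called, 23 higher and 15 lower in NB (27.9%). Over all 24082 genes tested, 31.8% were called, 19.5% higher and 12.3% lower, so the members' share was near that of the genome. In NB against SH, 136 members were tested and 38 called, 30 higher and 8 lower (27.9%), beside 32.9% of all genes (19.6% higher, 13.2% lower). In SH against BB, 132 were tested and 7 called, 3 higher and 4 lower (5.3%), beside 5.74% of all genes (3.55% higher, 2.19% lower). The median log2 fold change of tested members was 0.05 in NB against BB (all genes 0.03), 0.29 in NB against SH (all genes 0.01) and -0.19 in SH against BB (all genes 0.00). Pools that did not overlap between the groups were seen for 39 members (28.7%) in NB against BB, 48 (35.3%) in NB against SH and 28 (21.2%) in SH against BB, beside 33.7%, 35.2% and 16.5% of all genes. As the 3 comparisons share pools, they are not independent of each other. In all, 55 members were called at least once, 82 were tested and never called, and 11 never had enough counts to be tested.

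The counts depended on the tool and on single pools. By DESeq2, 45, 50 and 22 members were called in the 3 comparisons, beside 33.4%, 34.4% and 11.6% of all genes. Leaving out BB2, BB3 or BB4 took the calls in NB against BB to 22, 24 and 22, leaving out NB2, SH3 or SH4 took those in NB against SH to 25, 24 and 21, and those in SH against BB ranged from 1 (without BB2, BB4, SH3 or SH4) to 18 (without BB1 or SH2).

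**Figure D2:**
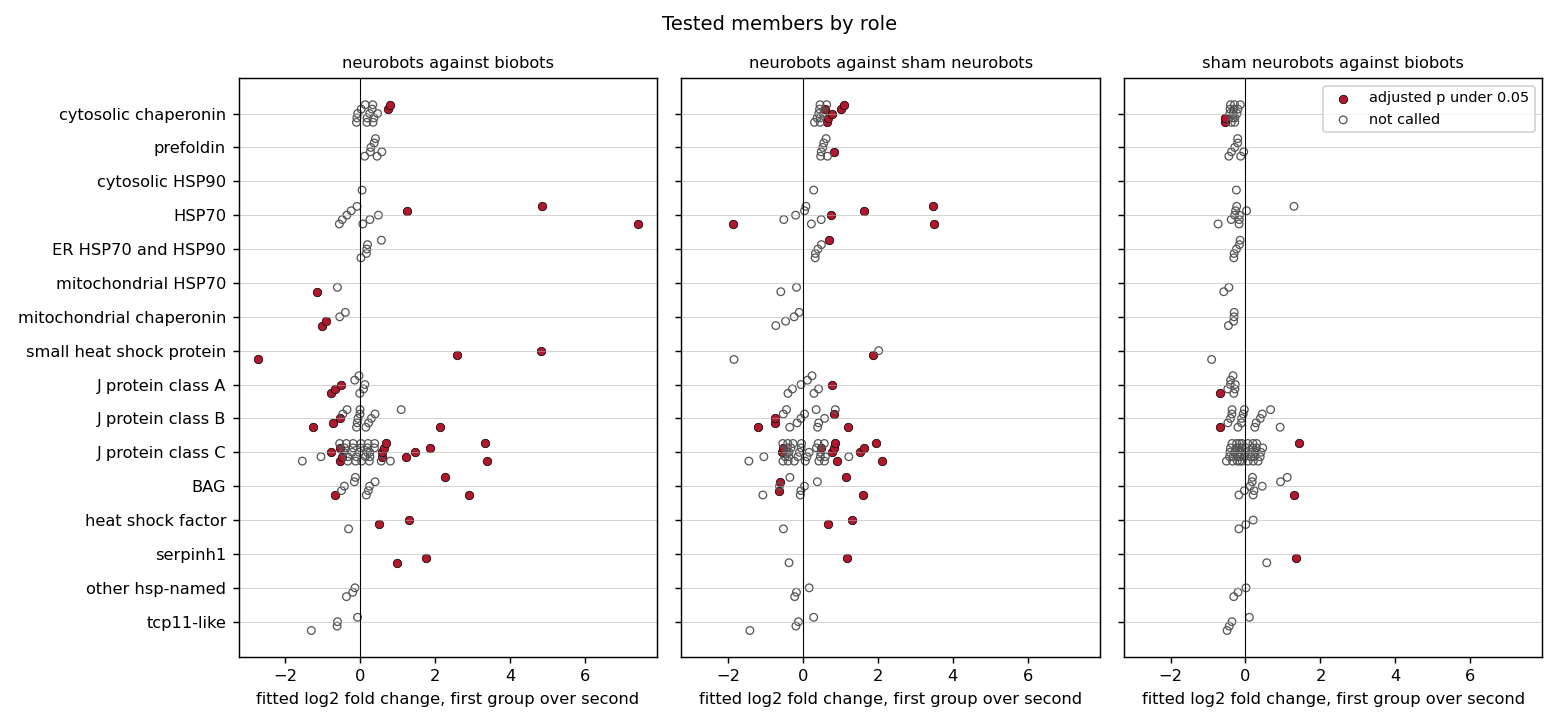
Fitted log2 fold change (first-named group over second) of each tested member, 1 point per gene, by role, for neurobots against biobots, neurobots against sham neurobots and sham neurobots against biobots. Red points passed adjusted p under 0.05. All 15 chaperonin genes lie right of 0 in neurobots against sham neurobots and left of 0 in sham neurobots against biobots, and all 6 mitochondrial HSP70 and chaperonin genes lie left of 0 in all 3 panels.

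The 2 cytosolic HSP90 genes without a symbol fell outside the name pattern and were looked at after the members. The HSP90-beta entry LOC108716102 on chromosome 5L rose in NB against SH (0.65 ± 0.18, adjusted p = 0.0207), a call lost without SH3 or SH4 (up to 0.0787), and the HSP90-alpha entry LOC108698781 on 8L was not called.

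The stress-inducible HSP70 genes hspa1a.L, hspa1a.S and hsp70.L were low in every bot type. The inducible HSP70 gene hspa1a.L was at 0.634, 0.642, 0.849 and 1.00 FPKM in NB, 1.32, 1.22, 0.886 and 0.928 in SH and 1.34, 1.01, 0.831 and 1.15 in BB, far below the cognate hspa1l.S, and was not called in any comparison. Its homeolog hspa1a.S was at 0.0106 to 0.0502 FPKM in NB, 0.0639 to 0.4325 in SH and 0 to 0.845 in BB. It lay below hspa1a.L in every pool but BB3, and was tested only in SH against BB (log2 -0.73 ± 0.91, adjusted p = 0.655). With the counts of both copies added, the hspa1a pair fell in NB against BB (-0.75 ± 0.25, adjusted p = 0.0399). Against SH the added pair was not called (-0.65 ± 0.25, adjusted p = 0.0673). Of these genes, hsp70.L alone was called without adding copies. It was at 1.33, 0.604, 1.16 and 0.455 CPM in NB, 3.39, 1.60, 3.24 and 4.58 CPM in SH and 2.61, 1.396, 0.642 and 0.664 CPM in BB. Every NB pool lay below every SH pool, and hsp70.L fell in NB against SH (log2 -1.85 ± 0.45, adjusted p = 0.0106), while NB and BB overlapped (-0.56 ± 0.55, adjusted p = 0.473).

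The J protein dnajb1.L, the main HSP40 of the heat response, was at 8.47, 11.8, 17.0 and 18.8 CPM in NB, 18.4, 19.0, 18.2 and 16.3 in SH and 15.003, 16.5, 15.4 and 14.4 in BB. Only NB1 and NB2 stood below the rest, and no comparison called it (NB against SH -0.35 ± 0.24, adjusted p = 0.281). The homeologs of bag3, a BAG protein that heat induces, stayed between 0.288 and 2.501 CPM in all 12 pools and were not called. The small heat shock protein hspb1 (HSP27 in mammals) was at most 0.362 CPM for hspb1.L and 0.105 CPM for hspb1.S, and neither had enough counts for a test.

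The hsp30 genes are small heat shock proteins known from heat-treated Xenopus embryos and cells. The 2 members with this name, hsp30c.L and hsp30d.L, lie beside each other on chromosome 7L and did not pass the filter on low counts. For hsp30c.L the pools read 0.0647, 1.35, 0.833 and 0.881 CPM in NB, 0.182, 0, 0.0349 and 0.121 in SH, and 0, 0, 0.0338 and 0.0664 in BB. The 4 NB pools together held 108 counts and the 4 BB pools 3, a ratio of 34.9 per sequenced count with a 95% exact interval of 11.6 to 172 that covers counting error only, and NB1 lay within the SH range. The pools for hsp30d.L overlapped, at 0.142 to 0.582 CPM in NB, 0.0301 to 0.314 in SH and 0.0332 to 0.558 in BB.

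The gene table holds 8 further entries described as hsp30C-like or hsp30D-like that have no symbol and so fell outside the name pattern; they were looked at after the values of hsp30c.L had been seen. Summed over the 8, the level was 9.28, 105, 62.5 and 64.0 CPM in NB, 5.61, 1.33, 0.663 and 0.542 in SH and 2.98, 0.598, 0.844 and 0.996 in BB. In NB2, NB3 and NB4 most of this came from LOC108697977, on chromosome 7S (90726354 to 90727907, plus strand), at 4.37, 85.3, 51.4 and 53.3 CPM in NB, 4.15, 0.482, 0.0698 and 0 in SH, and 0 in all 4 BB pools. Against the floor of 3 counts per library, its mean in NB was at least 488-fold higher than in BB. Against SH it rose by 5.35 on the log2 scale (SE 1.26, adjusted p = 0.00968), with NB1 just above SH1 and the other NB pools far above every SH pool.

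Its neighbours within the same stretch of chromosome 7S were higher in NB too, except LOC108697719. LOC108697721 was at 0.873, 12.8, 6.10 and 6.42 CPM in NB, 0.515, 0.151, 0 and 0 in SH and 0, 0.142, 0.0676 and 0 in BB, with every NB pool above every other (adjusted p = 0.00047 against BB and 0.00429 against SH). LOC100101278 and the hsp30C-like LOC108697720 rose in NB against BB (log2 2.63 ± 0.73 and 3.11 ± 0.73, adjusted p = 0.0188 and 0.00819) and in NB against SH (4.03 ± 0.57 and 3.81 ± 0.63, adjusted p = 0.000587 and 0.00134). LOC108697719, at the other end of the stretch, was not called in any comparison (0.35 ± 0.74 for NB against BB, adjusted p = 0.747). On chromosome 7L, LOC108696640 rose in both as well (1.94 ± 0.50 and 2.42 ± 0.40, adjusted p = 0.0136 and 0.00131). All of these entries but LOC108697719 passed the filter on low counts through the NB pools and were not tested in SH against BB, so that a difference was built into their selection. Copies of this family are similar enough to share reads, so that the split of the signal between them is uncertain. The call of LOC100101278 in NB against BB was lost without NB2, BB3 or BB4 (highest adjusted p 0.0618) and that of LOC108696640 without BB2 or BB4 (up to 0.0576). Several marker lists rose along with these genes. The notochord list summed to 36.6 to 90.5 CPM in NB, 4.76 to 16.03 in SH and 7.44 to 13.56 in BB, the photoreceptor list to 6.18 to 83.9 CPM in NB and less than 1 CPM in each SH and BB pool, and the neuron list is given above. The skeletal muscle list overlapped between groups (3.19 to 5.24 CPM in NB, 3.45 to 5.43 in SH, 2.49 to 3.95 in BB) and the lens list stayed under 1 CPM. The part of any of these cells in the hsp30 values was not tested.

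Of the heat shock factors, which bind the promoters of chaperone genes, 2 of the 3 named by symbol rose in NB against BB and SH, where 31.8% and 32.9% of all genes were called. The gene hsf2.2.L was at 16.2, 27.8, 16.3 and 16.9 CPM in NB, 7.82, 9.28, 7.74 and 6.69 in SH and 7.82, 7.41, 9.66 and 6.84 in BB. All NB pools stood above all others, SH and BB lay on top of each other, and the log2 fold change was 1.3 ± 0.23 against BB (adjusted p = 0.00141) and 1.3 ± 0.22 against SH (adjusted p = 0.00167). Its neighbour hsf2.L, the next heat shock factor on chromosome 5L, read 17.0, 18.8, 22.3 and 19.6 CPM in NB, 12.6, 9.91, 13.7 and 12.3 in SH and 12.4, 15.8, 13.4 and 13.98 in BB, a rise of 0.51 ± 0.16 against BB (adjusted p = 0.0373) and 0.68 ± 0.17 against SH (adjusted p = 0.0119). The first of these was lost when any of NB3, NB4 or the BB pools was left out (adjusted p up to 0.103). By contrast hsf1.S, the master regulator of the heat response, was not called: 2.59, 4.98, 8.45 and 9.83 CPM in NB, 10.3, 8.10, 10.8 and 8.02 in SH and 8.19, 9.31, 6.76 and 8.44 in BB (-0.32 ± 0.36 against BB, adjusted p = 0.54). Heat shock factor entries without a symbol fell outside the name pattern and were looked at after the members, and 6 of them could be tested. The hsf3 entry LOC108698253 rose in NB (3.08 ± 0.60 against BB and 3.34 ± 0.66 against SH, adjusted p = 0.0028 and 0.0039), at 1.20, 8.43, 5.95 and 4.60 CPM in NB, 0.394, 0.753, 0.105 and 0.723 in SH and 0.968, 0.541, 0.676 and 0.232 in BB. The hsf4 entry LOC108714027 fell, at 0.194, 0.115, 0.297 and 0.170 CPM in NB, 0.424, 0.874, 0.558 and 1.02 in SH and 0.819, 0.855, 0.676 and 1.13 in BB (-2.12 ± 0.45 and -1.87 ± 0.47, adjusted p = 0.00427 and 0.0134). It passed the filter on low counts through the BB or SH pools of each comparison, so that a difference was built into its selection. The other 4 were not called in any comparison. All 6 entries were tested under the main settings alone.

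The cytosolic chaperonin was represented by 15 genes, of which 40.0% were called in NB against SH, 13.3% in NB against BB and 13.3% in SH against BB, beside 32.9%, 31.8% and 5.74% of all genes. Summed over its subunits, the level was 3977, 4002, 2640 and 2726 CPM in NB, 1821, 2600, 2197 and 2075 in SH and 2693, 2749, 2941 and 2717 in BB. NB1 and NB2 stood above all other pools, NB3 and NB4 lay within the BB range or just under it, and every SH pool was below every NB and BB pool. Against SH, all 15 genes had a positive fold change (0.31 to 1.10 on the log2 scale, median 0.55), 6 rose and 8 had pools that did not overlap, where 35.2% of all tested genes had non-overlapping pools. In NB against BB 12 of 15 were positive (median 0.25) and 2 rose; cct3.S and cct8.L, 2 of the positive ones, turned negative in at least 1 alternative. In SH against BB all 15 were negative (-0.55 to -0.14, median -0.33), 2 fell and 7 did not overlap, beside 16.5% of all genes. A subunit gamma-like entry without a symbol, LOC108700399, fell outside the name pattern and was tested under the main settings alone. It fell in SH against BB (-0.61 ± 0.12, adjusted p = 0.02). In NB it was not called against BB (-0.34 ± 0.22, adjusted p = 0.27) or SH (0.27 ± 0.21, adjusted p = 0.338).

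The founding subunit tcp1.L, which gave the complex its older name, was at 384, 436, 258 and 279 CPM in NB, 170, 233, 202 and 190 in SH and 260, 277, 283 and 254 in BB. It rose in NB against SH (0.78 ± 0.22, adjusted p = 0.0213), and in NB against BB the pools overlapped (0.36 ± 0.20, adjusted p = 0.201). The largest change was that of cct2.L, at 200, 298, 170 and 184 CPM in NB, 83.9, 120, 102 and 92.9 in SH and 111, 137, 139 and 115 in BB. Here every NB pool stood above every SH and BB pool, with a rise of 1.10 ± 0.22 against SH (adjusted p = 0.00383) and 0.79 ± 0.21 against BB (adjusted p = 0.0146). The same held for cct5b (410, 561, 324 and 323 CPM in NB, 155, 264, 195 and 191 in SH, 238, 234, 269 and 249 in BB), which rose by 1.01 ± 0.25 against SH (adjusted p = 0.0111) and 0.73 ± 0.21 against BB (adjusted p = 0.0224).

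The other subunits that rose in NB against SH were tcp1.S, cct2.S and cct6a.L, by 0.60 to 0.66 on the log2 scale with adjusted p between 0.0374 and 0.042. The smallest difference was that of cct8.S (0.31 ± 0.15, adjusted p = 0.151), at 64.0, 50.3, 48.2 and 43.8 CPM in NB and 41.0, 41.5, 44.8 and 40.0 in SH. In SH against BB, cct4.L (-0.55 ± 0.13, adjusted p = 0.0329) and cct7.S (-0.55 ± 0.12, adjusted p = 0.0267) fell. The count of 6 in NB against SH was 2 without NB2, SH1, SH3 or SH4, 3 without the filter on low counts, and 9 when all 12 libraries shared a fit; cct2.L and cct5b kept this call in each of 18 alternatives. In NB against BB, cct2.L was lost without BB4 (adjusted p = 0.0551) and cct5b without BB1, BB2 or BB4 (up to 0.0735), and in SH against BB leaving out BB2, BB3, BB4, SH1, SH3 or SH4 ended the calls of cct4.L (up to 0.109) and cct7.S (up to 0.0909). Among the calls against SH, tcp1.L and tcp1.S were lost without NB2, SH1, SH3 or SH4 (up to 0.0677 and 0.102), cct2.S without NB2, NB4 or any SH pool (up to 0.108) and cct6a.L without NB1, NB2 or any SH pool (up to 0.113). With both copies added, the cct6a pair was not called in NB against SH (0.61 ± 0.23, adjusted p = 0.07), whereas the cct2 and tcp1 pairs rose (adjusted p = 0.00764 and 0.0249). In SH against BB the added cct7 pair fell (adjusted p = 0.0435) and the added cct4 pair was not called (-0.40 ± 0.13, adjusted p = 0.0812).

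**Figure D3:**
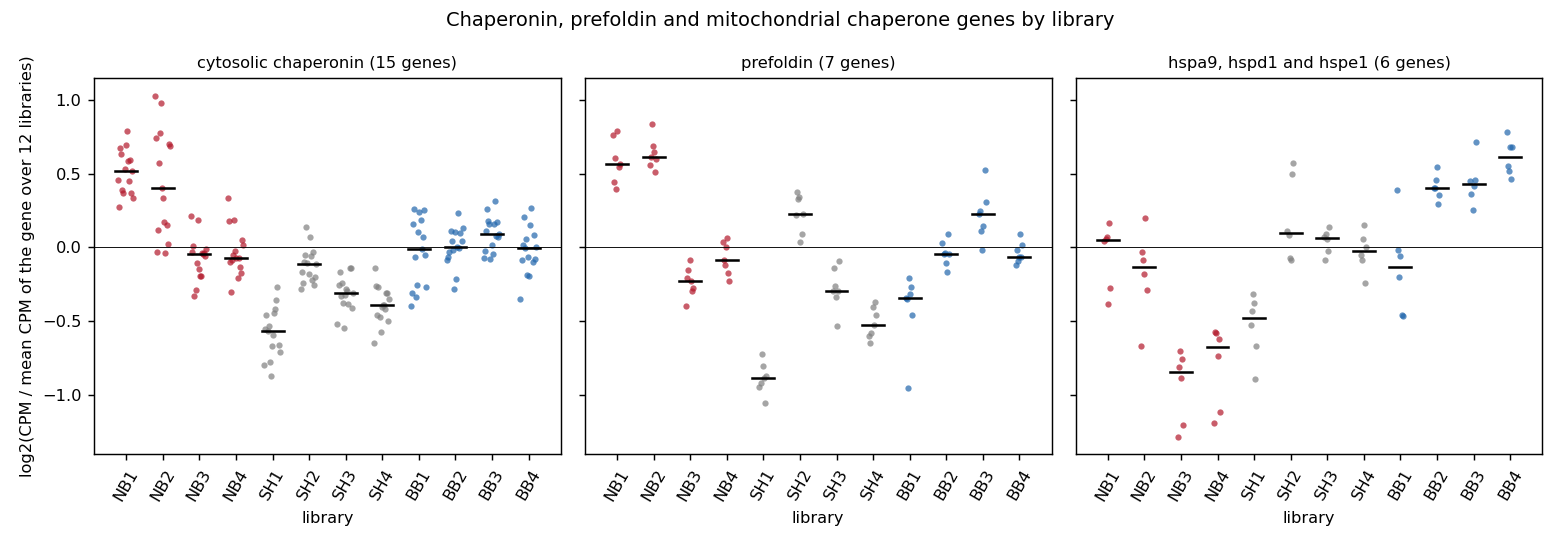
Level of each chaperonin, prefoldin and mitochondrial chaperone gene in each library, as log2 of its CPM over its mean CPM in the 12 libraries; points are genes, bars are medians, and neurobot libraries come first, then those of sham neurobots, then those of biobots. NB1 and NB2 stand above the other pools for chaperonin and prefoldin, SH1 is the lowest pool for both, and NB3 and NB4 are the lowest for the mitochondrial genes.

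Prefoldin delivers actin and tubulin to the chaperonin. Its 7 members summed to 291, 302, 168 and 189 CPM in NB, 105, 232, 162 and 139 in SH and 157, 191, 232 and 193 in BB. NB1 and NB2 were the highest pools and SH1 the lowest, and SH2 stood above NB3 and NB4. All 7 fold changes were positive in NB against SH (0.47 to 0.82) and negative in SH against BB (-0.44 to -0.05). Calls numbered 1 of 7 (14.3%) in NB against SH and 0 in NB against BB and in SH against BB, beside 32.9%, 31.8% and 5.74% of all genes. In NB against SH 0 of 7 had pools that did not overlap, beside 35.2% of all genes. Only pfdn5.S passed the test (0.82 ± 0.26 for NB against SH, adjusted p = 0.0375). Its pools still overlapped, at 56.0, 50.6, 27.6 and 33.8 CPM in NB and 17.6, 33.2, 22.4 and 22.5 in SH, and the call was lost without NB1, NB2, SH1, SH3 or SH4 (adjusted p up to 0.101). With both copies added, the pfdn5 pair was not called in NB against SH (0.67 ± 0.26, adjusted p = 0.0723). Entries without a symbol for prefoldin subunit 2 (LOC108700410) and subunit 1 (LOC108713285) fell outside the name pattern and were not called in any comparison. For LOC108700410 the values were 0.60 ± 0.22 against BB (adjusted p = 0.0569) and 0.65 ± 0.25 against SH (adjusted p = 0.0675), both for NB.

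The clients and later partners of this pathway were counted from lists. Over all genes, 31.8%, 32.9% and 5.74% were called in NB against BB, NB against SH and SH against BB. Of 17 genes that act on tubulin or actin after or beside the chaperonin, tbce.L, a tubulin folding cofactor, rose in NB against BB (0.73 ± 0.20, adjusted p = 0.0184) and SH (0.79 ± 0.19, adjusted p = 0.0115), and its relative tbcel.L fell (-0.86 ± 0.19 and -1.11 ± 0.23, adjusted p = 0.00504 and 0.00455). The other 15 were not called in either. Of 24 alpha and beta tubulin genes, 9 rose and 1 fell in NB against BB and 10 rose in NB against SH; of 22 tested in SH against BB, 2 fell. Some of these tubulins are themselves neuronal genes. Of the 4 cytoplasmic actin genes, actb.L rose in NB against BB (0.83 ± 0.25, adjusted p = 0.0266) and SH (0.88 ± 0.27, adjusted p = 0.0305), and actg1.L rose against SH (0.70 ± 0.24, adjusted p = 0.0479).

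The chaperones of the mitochondrial matrix were lower in NB than in BB, with 3 of 6 called beside 31.8% of all genes. The set comprises the mitochondrial HSP70 hspa9, the chaperonin hspd1 (HSP60) and its lid hspe1 (HSP10), each with both homeologs. Summed CPM was 1095, 921, 562 and 622 in NB, 797, 1194, 1137 and 1093 in SH and 1160, 1484, 1474 and 1741 in BB. Every BB pool lay above every NB pool, and SH overlapped both. In NB against BB all 6 genes had negative fold changes (median -0.77) and 3 fell. The largest was that of hspa9.L, at 409, 251, 163 and 174 CPM in NB, 276, 430, 417 and 384 in SH and 522, 526, 544 and 684 in BB (-1.17 ± 0.29, adjusted p = 0.0108).

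Next were hspe1.S (-1.02 ± 0.30, adjusted p = 0.0245) and hspd1.S, which read 113, 131, 80.1 and 88.7 CPM in NB, 114, 139, 154 and 164 in SH and 142, 216, 197 and 237 in BB (-0.92 ± 0.22, adjusted p = 0.00842). The pools of hspe1.S overlapped, at 61.6, 61.1, 32.3 and 34.4 CPM in NB and 54.1, 95.2, 122.6 and 119.5 in BB. With both copies added, the hspe1 pair was not called in NB against BB (-0.73 ± 0.29, adjusted p = 0.077). The added hspa9 and hspd1 pairs fell (adjusted p = 0.0169 and 0.0337). In NB against SH and in SH against BB the 6 fold changes were again negative, but none passed the test by edgeR; at an unadjusted p under 0.05 there were 2 and 3, and DESeq2 called 0 and 2. Without NB1 and BB1 all 6 fell in NB against BB and 2 fell in NB against SH. The call of hspe1.S was lost without NB3, NB4, BB3 or BB4 (adjusted p up to 0.0702), and those of hspa9.L and hspd1.S held in each of 19 alternatives.

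Other mitochondrial quality-control genes were counted from a list, beside 31.8% and 32.9% of all genes called in NB against BB and NB against SH. Of 15 tested, 7 fell and none rose in NB against BB, among them clpx.S, the unfoldase of a matrix protease (-1.34 ± 0.19, adjusted p = 0.000404), and trap1.L and trap1.S, the mitochondrial HSP90 (-0.60 ± 0.17 and -0.64 ± 0.17, adjusted p = 0.0193 and 0.0128). In NB against SH 4 fell and 1 rose. The mitochondrial J proteins dnaja3.L and dnaja3.S, partners of hspa9, fell in NB against BB (-0.80 ± 0.19 and -0.52 ± 0.17, adjusted p = 0.00934 and 0.0366), as did dnajc4.L (-0.79 ± 0.24, adjusted p = 0.027) and both homeologs of dnajc11, a protein of the cristae junction complex (-0.50 ± 0.17 and -0.56 ± 0.16, adjusted p = 0.0406 and 0.0193). Other mitochondrial J proteins, dnajc15.L, dnajc19.L, dnajc28.L and dnajc30.L, were not called in NB against BB. For dnajc15.L the pools overlapped, at 14.6, 21.6, 11.1 and 10.8 CPM in NB and 8.45, 14.4, 17.0 and 13.9 in BB. Ionocytes and multiciliated cells are rich in mitochondria. Of the ionocyte markers 5 of 6 fell in NB against BB and 3 of 6 in NB against SH. Of the multiciliated cell markers 3 of 11 fell and 1 rose in NB against BB, and 5 fell and 1 rose in NB against SH; their sum was 262 to 463.5 CPM in NB, 441 to 751 in SH and 499 to 669 in BB, so that NB and SH overlapped. The part of these cells in the mitochondrial values was not tested.

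In the ER, the HSP70 hspa5 (BiP), the HSP90 hsp90b1 (GRP94) and hspa13.L had positive fold changes in NB in both comparisons. Against BB 0 of these 5 genes were called, beside 31.8% of all genes. Against SH 1 of 5 rose, beside 32.9% of all genes called. This was hsp90b1.S, at 247, 396, 258 and 254 CPM in NB, 154, 169, 202 and 188 in SH and 223, 194, 163 and 214 in BB (0.70 ± 0.21 against SH, adjusted p = 0.0268; 0.56 ± 0.21 against BB, adjusted p = 0.0617). The call was lost without NB2 or any SH pool (adjusted p up to 0.0736). Its more abundant homeolog hsp90b1.L overlapped, at 389 to 583 CPM in NB and 304 to 441 in SH, and was not called (0.40 against SH). With both copies added, the hsp90b1 pair was not called in NB against SH (0.52 ± 0.21, adjusted p = 0.0812). Of the hspa5 copies, the more abundant, hspa5.S, was at 435, 438, 376 and 351 CPM in NB, 270, 299, 326 and 384 in SH and 612, 416, 250 and 326 in BB, with BB1 the highest of all pools, and was not called (0.33 ± 0.19 against SH, adjusted p = 0.205).

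Of 39 tested genes on a list for ER stress and ER folding, 11 rose and 2 fell in NB against SH, 3 rose and 6 fell in NB against BB, and 1 rose and 6 fell in SH against BB, where 32.9%, 31.8% and 5.74% of all genes were called. The transcription factors of the stress arm, ddit3.L (CHOP) and atf4.S, rose in NB against BB (1.31 ± 0.22 and 0.79 ± 0.17, adjusted p = 0.00126 and 0.00538) and SH (0.73 ± 0.22 and 1.05 ± 0.22, adjusted p = 0.028 and 0.00508). By contrast edem1.L, which sends misfolded proteins to degradation, and sdf2l1.L, a partner of BiP, fell in NB against BB (-0.88 ± 0.14 and -1.07 ± 0.17, adjusted p = 0.0007 and 0.000807) and in NB against SH (-0.42 ± 0.13 and -0.50 ± 0.17, adjusted p = 0.0336 and 0.0472). The ER J protein dnajb11.S (ERdj3) was lowest in SH: it rose in NB against SH (0.82 ± 0.26, adjusted p = 0.0348) and fell in SH against BB (-0.67 ± 0.12, adjusted p = 0.0161). Its pools read 43.5, 27.1, 18.03 and 22.1 CPM in NB, 13.1, 17.4, 15.2 and 17.2 in SH and 24.8, 26.6, 24.1 and 25.9 in BB. The first call was lost without NB2 or any SH pool (adjusted p up to 0.0922) and the second without BB2, BB4 or SH3 (up to 0.0546). With both copies added, the dnajb11 pair was not called in NB against SH (0.66 ± 0.23, adjusted p = 0.0537). In SH against BB the added pair fell (-0.46 ± 0.11, adjusted p = 0.0395). Another ER J protein, dnajb9.L (ERdj4), fell in NB against SH (-0.75 ± 0.20, adjusted p = 0.018), and without SH4 this was no longer called (adjusted p = 0.0539). Its homeolog dnajb9.S, at 18.9 to 28.9 CPM in NB and 17.6 to 31.6 in SH, was not called. With both copies added, the pair was not called in NB against SH either (-0.36 ± 0.17, adjusted p = 0.133).

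The largest increases among members were in genes that are hardly expressed in biobots. In first place stood the distant HSP70 relatives hspa12b.L and hspa12a.L, which lack the usual peptide-binding part of an HSP70. The pools for hspa12b.L were at 2.17, 3.19, 5.18 and 3.81 CPM in NB, 0.273, 0.542, 0.349 and 0.121 in SH and 0.186, 0.171, 0.0676 and 0.0664 in BB. The rise was 4.85 ± 0.49 against BB (adjusted p = 6.65e-05) and 3.48 ± 0.47 against SH (adjusted p = 0.00046). For hspa12a.L the values were 0.453, 0.633, 0.714 and 0.824 CPM in NB, 0.121, 0, 0.105 and 0 in SH and 0 in every BB pool, so that NB was at least 6.59-fold higher than BB against the floor, and the rise against SH was 3.49 ± 0.77 (adjusted p = 0.00689). Its homeolog hspa12a.S stayed at 0.0301 to 0.372 CPM in all 12 pools. These genes passed the filter on low counts through the NB pools alone. Another HSP70, hspa2.L, rose to 2.52, 2.62, 3.00 and 2.70 CPM in NB, against 1.33, 0.723, 0.872 and 0.573 in SH and 1.15, 0.912, 0.743 and 1.83 in BB (1.25 ± 0.35 against BB, adjusted p = 0.0198; 1.63 ± 0.33 against SH, adjusted p = 0.0045).

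**Figure D4:**
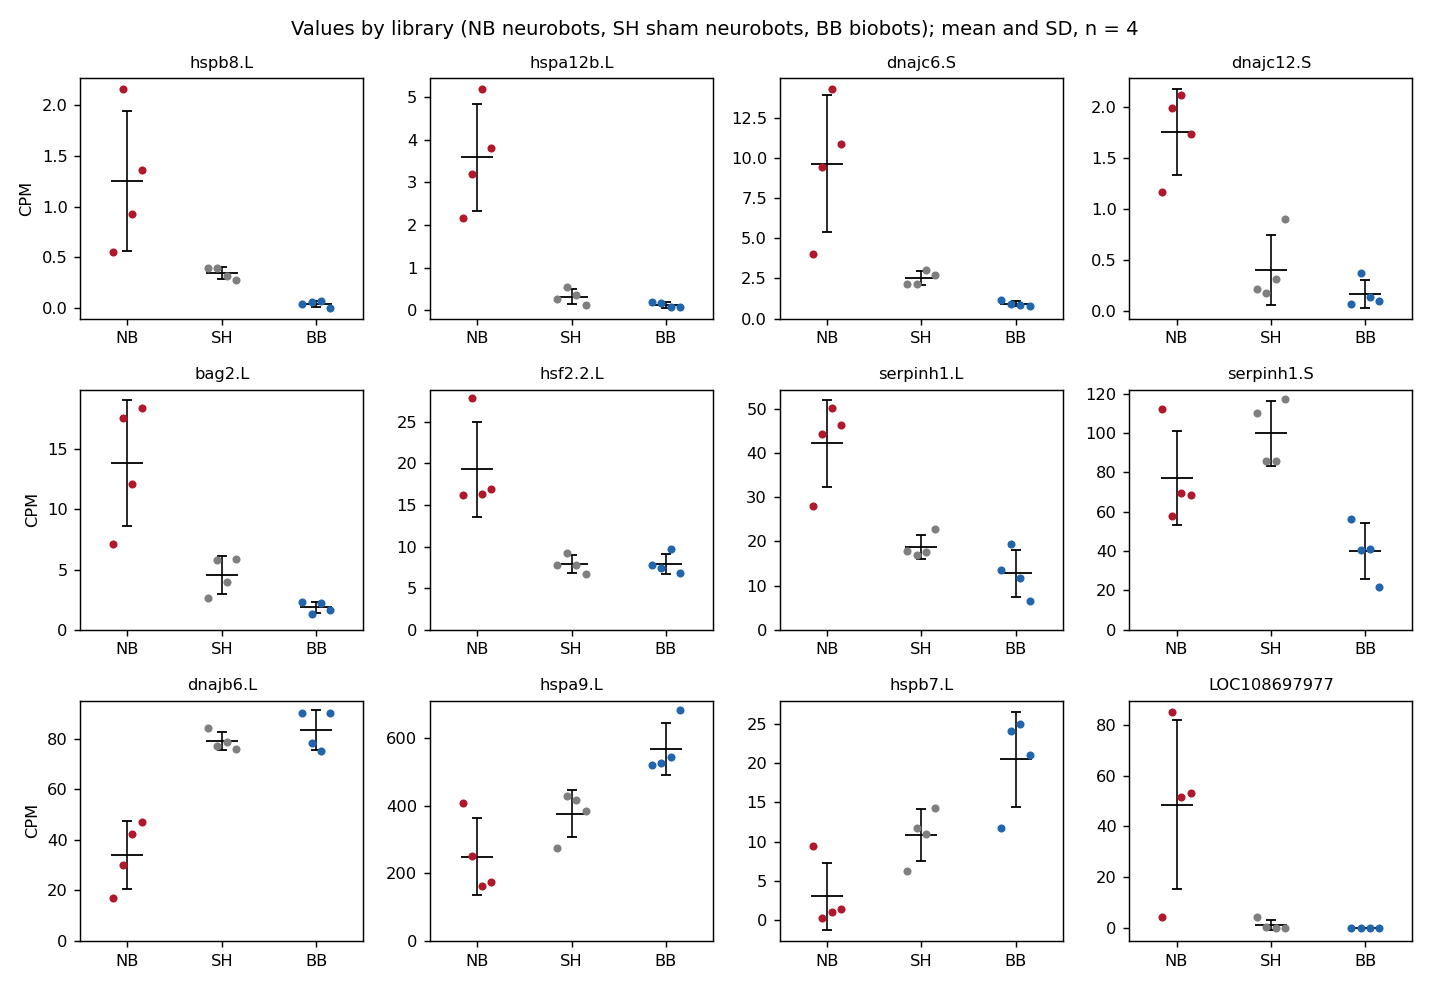
CPM of 11 members and of the hsp30D-like entry LOC108697977 in every library (points), with the mean and SD of each group (n = 4), in the order neurobots, sham neurobots, biobots. In the first 7 panels every neurobot pool lies above every sham neurobot and biobot pool, serpinh1.S is high in neurobots and sham neurobots, and dnajb6.L is low in neurobots.

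Among J proteins, 10 of 65 tested rose and 10 fell in NB against BB, and 12 rose and 5 fell in NB against SH. These shares, 30.8% and 26.2%, lay near or below the 31.8% and 32.9% of all genes. The most prominent was dnajc6, auxilin, which calls cognate HSP70 to clathrin-coated vesicles and is abundant at nerve terminals in mammals. For dnajc6.S the pools read 4.04, 9.44, 14.3 and 10.9 CPM in NB, 2.15, 2.14, 3.03 and 2.71 in SH and 1.15, 0.940, 0.845 and 0.797 in BB. The groups were fully ordered, NB above SH above BB, with a rise of 3.39 ± 0.39 for NB against BB (adjusted p = 0.000126), 1.95 ± 0.35 for NB against SH (adjusted p = 0.00239) and 1.44 ± 0.26 for SH against BB (adjusted p = 0.0156). The last was lost without BB4, SH3 or SH4 (adjusted p up to 0.0605). Its homeolog dnajc6.L rose as well in NB, by 1.86 ± 0.45 against BB and 1.52 ± 0.47 against SH (adjusted p = 0.00903 and 0.0309), although NB1, at 1.88 CPM, lay within the range of the others.

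The 2 homeologs of dnajc12, in humans a cochaperone of the hydroxylases that make serotonin and dopamine precursors, did not move together. The S copy was at 1.16, 1.98, 2.11 and 1.73 CPM in NB, 0.212, 0.181, 0.314 and 0.904 in SH and 0.0745, 0.370, 0.135 and 0.0996 in BB, a rise of 3.32 ± 0.54 against BB (adjusted p = 0.000911) and 2.11 ± 0.53 against SH (adjusted p = 0.0134); it passed the filter on low counts through the NB pools. The L copy was at 2.72, 0.403, 0.416 and 1.19 CPM in NB, 1.70, 2.56, 2.09 and 3.37 in SH and 1.90, 3.62, 5.17 and 3.32 in BB and was not called (-1.55 ± 0.60 against BB, adjusted p = 0.0714). As a result dnajc12.L held 70.0%, 16.9%, 16.5% and 40.8% of the pair's counts in NB, 78.9% to 93.4% in SH and 90.7% to 97.5% in BB. With both copies added, the dnajc12 pair was not called in NB against BB (-0.30 ± 0.33, adjusted p = 0.531) or SH (0.06 ± 0.31, adjusted p = 0.894).

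Of 19 tested neuron markers, 18 rose and 1 fell in NB against BB, and 18 rose and 1 fell in NB against SH. All 11 tested neural progenitor markers rose in NB against BB and 9 of 11 in NB against SH. Over all genes, 31.8% and 32.9% were called. The part of neurons and neural progenitors in these J protein values was not tested. Further J proteins rose by less. Both homeologs of dnajc1, an ER membrane J protein, rose in NB (L copy 0.69 ± 0.17 against BB and 0.78 ± 0.15 against SH, adjusted p = 0.0115 and 0.00341), with all NB pools above all others. So did dnajc18.S, at 5.69, 4.57, 5.98 and 5.26 CPM in NB, 2.27, 1.81, 0.942 and 1.90 in SH and 3.05, 1.88, 1.42 and 1.63 in BB (1.45 ± 0.30 and 1.63 ± 0.29, adjusted p = 0.00382 and 0.00225). The histone cochaperone dnajc9.L rose by 0.62 ± 0.21 against BB and 0.86 ± 0.23 against SH (adjusted p = 0.0441 and 0.0176). The ribosome-bound pair of dnajc2 and hspa14, which act together on nascent chains, gave 1 call each: dnajc2.L in NB against BB (0.57 ± 0.20, adjusted p = 0.049) and hspa14.S in NB against SH (0.74 ± 0.21, adjusted p = 0.0243). Reads of dnajc2.L cannot be told apart from those of pmpcb.L, which overlaps it on the other strand, because the library did not keep strand.

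The class B gene dnajb5.S rose in NB (2.12 ± 0.45 against BB and 1.20 ± 0.39 against SH, adjusted p = 0.00462 and 0.039), as did dnajc27.S, a J protein joined to a small GTPase (1.23 ± 0.37 and 0.82 ± 0.22, adjusted p = 0.0276 and 0.0167). For dnajc27.S, BB1 at 7.63 CPM lay above NB3 at 7.41. Its homeolog dnajc27.L was not called in either comparison (0.20 and 0.06). With both copies added, the dnajc27 pair was not called either (0.54 ± 0.26 and 0.33 ± 0.15, adjusted p = 0.139 and 0.118). The class A gene dnaja4.1.L was lowest in SH, at 39.4, 52.0, 33.9 and 34.9 CPM in NB, 19.7, 26.8, 21.1 and 25.5 in SH and 31.6, 46.7, 31.7 and 39.8 in BB. It rose in NB against SH (0.79 ± 0.19, adjusted p = 0.00968) and fell in SH against BB (-0.67 ± 0.16, adjusted p = 0.0363), a call lost without BB2, BB3, BB4, SH1, SH3 or SH4 (up to 0.104).

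The J protein that fell most was dnajb6.L, which in mammals keeps polyglutamine proteins from aggregating and binds keratins. It was at 17.0, 30.004, 42.5 and 47.1 CPM in NB, 84.4, 77.4, 78.8 and 75.9 in SH and 90.3, 78.3, 75.2 and 90.2 in BB. All NB pools lay far below, by -1.27 ± 0.28 against BB (adjusted p = 0.00562) and -1.21 ± 0.28 against SH (adjusted p = 0.00861), in each of 19 and 18 alternatives. The S copy fell in NB against SH (-0.75 ± 0.14, adjusted p = 0.00265), with 22.5 to 25.3 CPM in NB, 36.7 to 46.6 in SH and 29.1 to 33.5 in BB. The sum of the epidermal keratinocyte markers was lower in NB than in BB, at 7050 to 15770 CPM in NB, 11660 to 17940 in SH and 18220 to 20860 in BB. Gene by gene, however, 4 of the 6 rose and 1 fell in NB against BB, and 3 rose in NB against SH. The list shares itln1 with the goblet cell list, which alone summed to 5945 to 14820 CPM in NB, 11180 to 17510 in SH and 17930 to 20590 in BB. The keratinocyte sum therefore need not reflect the other genes of its list. The part of keratinocytes or goblet cells in the dnajb6 values was not tested. The axonemal J protein dnajb13.S of motile cilia fell in NB against BB (-0.54 ± 0.19, adjusted p = 0.0493), alongside the multiciliated cell markers given above. Further falls in NB against BB were those of dnajb14.L, dnaja4.2.S and dnajc5g.S, by 0.54 to 0.73 on the log2 scale with adjusted p between 0.0219 and 0.0394. The call of dnajb14.L was lost without NB2 or BB4 (0.0565 at most). Whether those of dnaja4.2.S and dnajc5g.S held under the alternatives is not reported here.

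Of the BAG proteins, bag2 rose in both homeologs. This protein holds back the ubiquitin ligase CHIP and so spares HSP70 clients from degradation. The pools of bag2.L read 7.15, 17.5, 12.1 and 18.4 CPM in NB, 2.61, 5.75, 3.94 and 5.91 in SH and 2.27, 1.34, 2.26 and 1.63 in BB. NB stood above SH and SH above BB without overlap (NB against BB 2.90 ± 0.34, adjusted p = 0.000139; NB against SH 1.61 ± 0.35, adjusted p = 0.00631; SH against BB 1.3 ± 0.30, adjusted p = 0.0329). The call of SH against BB was lost without BB2, BB3, BB4, SH3 or SH4 (adjusted p up to 0.111). CHIP itself, stub1.S, fell in NB against BB (-0.60 ± 0.18, adjusted p = 0.0266) and SH (-0.72 ± 0.17, adjusted p = 0.00923).

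The other called BAG genes fell in NB. These were bag6.L, a chaperone of membrane proteins with a tail anchor, at 55.2, 43.5, 78.8 and 75.8 CPM in NB, 112, 86.5, 114 and 86.1 in SH and 86.9, 113, 100 and 112 in BB (-0.68 ± 0.21 against BB, adjusted p = 0.0299; -0.65 ± 0.22 against SH, adjusted p = 0.0441), and bag4.S against SH (-0.60 ± 0.16, adjusted p = 0.0147). Leaving out NB2, BB2, BB3 or BB4 ended the bag6.L call against BB (highest adjusted p 0.074), and leaving out NB1, NB2, SH1, SH3 or SH4 that against SH (up to 0.108). Its homeolog bag6.S was not called in either comparison. With both copies added, the bag6 pair was not called against BB (-0.60 ± 0.21, adjusted p = 0.0513) or SH (-0.63 ± 0.22, adjusted p = 0.0518). Of 21 tested partners of HSP90 and HSP70, 0 rose and 2 fell in NB against BB, and 2 rose and 2 fell in NB against SH. Over all genes, 31.8% and 32.9% were called in these comparisons. Those that rose were ppid.L and ppid.S (cyclophilin 40), in NB against SH (0.77 ± 0.18 and 0.82 ± 0.23, adjusted p = 0.00789 and 0.0223). Besides stub1.S, chordc1.S fell in NB against BB and SH (-0.57 ± 0.16 and -0.82 ± 0.15, adjusted p = 0.0211 and 0.00244). No other was called.

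Among the small heat shock proteins, 3 of 10 had enough counts for a test. Both copies of hspb8, which in mammals works with bag3 to clear misfolded proteins by autophagy, were higher in NB. For hspb8.L the pools read 0.550, 2.16, 0.922 and 1.36 CPM in NB, 0.394, 0.392, 0.314 and 0.271 in SH and 0.0372, 0.0570, 0.0676 and 0 in BB. No group overlapped another, and hspb8.L rose in NB against SH (1.86 ± 0.48, adjusted p = 0.014). The BB pools held 0 to 2 counts each: the 171 counts in NB against 5 in BB gave a ratio of 33.1 per sequenced count with a 95% exact interval of 13.9 to 103 that covers counting error only, and hspb8.S rose in NB against BB by 2.58 ± 0.56 (adjusted p = 0.00535). Both copies passed the filter on low counts through the NB pools alone. The muscle-type hspb2.L was at 0, 0.518, 0.178 and 0.171 CPM in NB and at 0 in all 8 SH and BB pools, too low for a test. The heart marker list was higher in NB too, at 11.6 to 20.9 CPM in NB, 7.96 to 10.09 in SH and 3.95 to 6.63 in BB, and its part in these values was not tested.

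The other tested gene, hspb7.L, known as a small heat shock protein of heart muscle, fell in NB against BB (-2.74 ± 0.81, adjusted p = 0.0249). Its pools were at 9.45, 0.288, 1.01 and 1.42 CPM in NB, 6.27, 11.7, 10.99 and 14.3 in SH and 11.7, 24.1, 25.0 and 21.1 in BB, with NB1 far above the other NB pools. The ionocyte list given above was lower in NB than in BB as well, and its part in the hspb7.L value was not tested. The hspb7.L call was lost without NB3, NB4, BB2 or BB3 (adjusted p up to 0.0805).

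The collagen chaperone serpinh1 (HSP47) of the ER differed between its homeologs. The L copy, on chromosome 2L, was at 27.9, 44.2, 50.2 and 46.4 CPM in NB, 17.8, 16.9, 17.5 and 22.7 in SH and 13.6, 19.3, 11.7 and 6.54 in BB. All NB pools were above all others (1.74 ± 0.31 against BB, adjusted p = 0.00167; 1.18 ± 0.21 against SH, adjusted p = 0.00208), and SH and BB overlapped. The S copy was at 112, 58.0, 69.3 and 68.7 CPM in NB, 110, 85.8, 85.8 and 117 in SH and 56.4, 40.5, 40.9 and 21.99 in BB. Here SH and NB overlapped (-0.37 ± 0.23 for NB against SH, adjusted p = 0.228), and it rose in both over BB (NB 0.97 ± 0.29, adjusted p = 0.0271; SH 1.34 ± 0.25, adjusted p = 0.0164). The first of these was lost without BB2, BB3 or BB4 (highest adjusted p 0.0654) and the second without BB2 or SH4 (up to 0.0599). The L copy held 19.9%, 43.2%, 42.0% and 40.3% of the pair's counts in NB, 13.9% to 17.0% in SH and 19.4% to 32.3% in BB. With both copies added, the serpinh1 pair was not called in NB against SH (0.02 ± 0.17, adjusted p = 0.927). The added pair rose over BB in NB (1.20 ± 0.25, adjusted p = 0.00434) and in SH (1.18 ± 0.24, adjusted p = 0.0242).

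Most homeologs moved alike. In NB against BB, 48 pairs had both copies tested: 37 had fold changes of the same sign, 7 had both called, always in 1 direction, and 12 had a single copy called. For NB against SH the same 3 counts were 41, 6 and 16 of 48 pairs, and in SH against BB 40, 0 and 6 of 47. The copies differed by a median of 0.28, 0.26 and 0.16 on the log2 scale in the 3 comparisons. When the counts of each pair were added before the fit, 15 of 51, 13 of 51 and 5 of 49 tested pairs were called. In these fits, 5776 of 18218, 6055 of 18615 and 925 of 17393 tested genes and added pairs were called in all. With the copies tested singly, 20, 23 and 6 pairs had at least 1 copy called, but a pair then had more chances of a call. Near-identical copies can exchange reads, which would draw their values together.

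**Figure D5:**
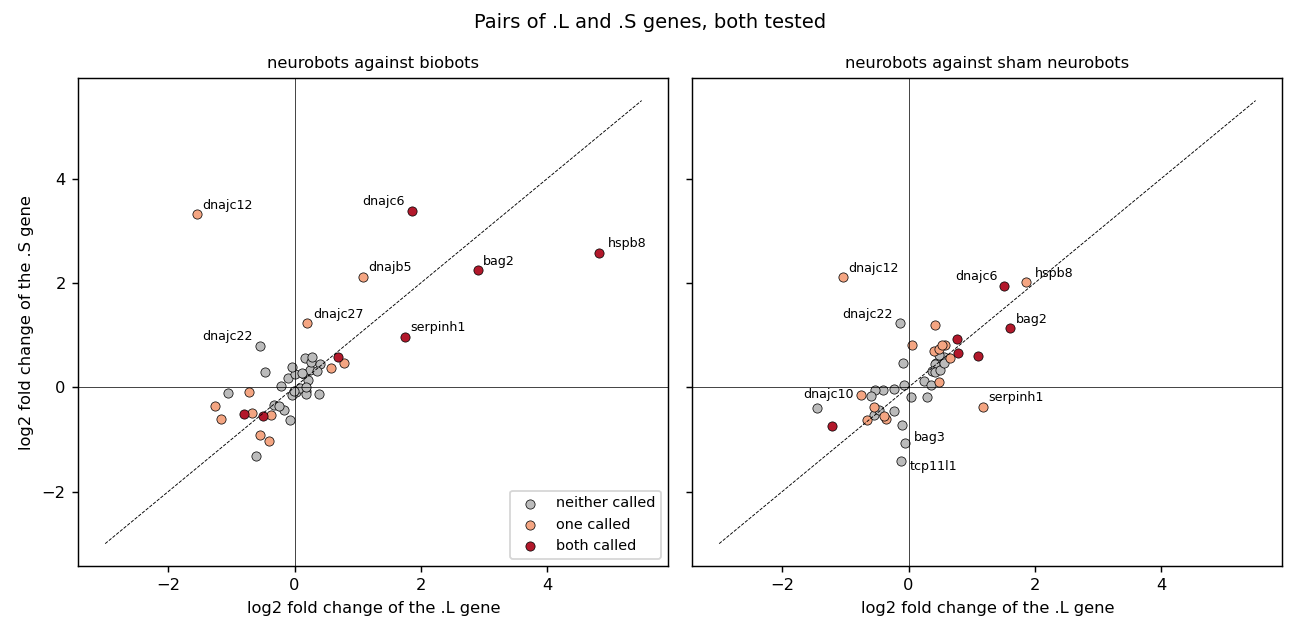
Log2 fold change of the S copy against that of the L copy for 48 pairs, in neurobots against biobots (left) and neurobots against sham neurobots (right); the dashed line marks equal change and red marks pairs with both copies called. Most pairs lie near the line, and dnajc12 is the pair farthest from it, with the S copy at 3.32 and the L copy at -1.55 in neurobots against biobots.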

How the data were processed

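Polyadenylated RNA of 12 pools of whole bots, 4 per type, was sequenced from low-input libraries that did not keep strand. Per the labels and the study's methods, the authors aligned reads with HISAT2 2.0.5 to the X. laevis v10.1 genome, assembled transcripts with StringTie 1.3.3b, counted with featureCounts 1.5.0-p3 and compared groups with DESeq2 1.20.0. The deposited count table holds raw counts per gene, and how reads shared by near-identical copies were treated is not given in the sources used here. The FPKM values deposited by the authors equalled counts over gene length times 1 factor per library (largest relative deviation 2.4e-13). No column was left unmapped. As strand was not kept, counts of a member that overlaps a gene on the other strand may include reads of that gene. Not every such neighbour is reported here.

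Counts were fitted in R 4.3.3 with edgeR 4.0.16 (TMM scaling, filterByExpr with a minimum count of 10, robust quasi-likelihood fit and test) on the 8 libraries of a comparison, with Benjamini-Hochberg adjustment over all genes tested and a threshold of 0.05; every adjusted p printed is from this test unless another tool is named. The scripts were tested on simulated data. CPM used TMM factors over the 12 libraries. Intervals on ratios of counts are exact binomial and cover counting error only. Alternatives were DESeq2 1.42.0, its size factors in edgeR, library size only, no filter and a stricter filter (10 counts in 4 libraries), limma 3.58.1 on log2(FPKM + 1) and log2(FPKM + 0.1), 1 fit over all 12 libraries, a replicate block, leaving out each pool, leaving out or modelling the separately sequenced NB1 and BB1, and adding up homeologs.

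Members were matched by gene identifier to a RefSeq gene table of assembly v10.1 (148 of 148). The members and lists were chosen with earlier results of these data known. Values are given for the abundant, stress-inducible, ER, mitochondrial, heat shock factor and serpinh1 genes, for tcp1 and the chaperonin subunits of largest and smallest change, and for the 6 largest changes in each direction whose pools did not overlap; the other genes named were chosen after their values were seen.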

Additional observations from a re-analysis of the deposited data

Results flagged for a closer look

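Of 167 groups of 4 pools examined, each for 1 named member, 9 held a pool far from the other 3 (by Dixon's criterion, the gap to the nearest pool over the group's range); chance alone marks about 1 group in 20. NB1 accounted for 5 of them. In NB1, cct3.S was at 174.41 CPM (other NB pools 101.96 to 109.74), cct7.S at 210.61 CPM (146.77 to 150.2), hsp90ab1.S at 1887.7 CPM (1268.2 to 1340), dnaja3.L at 34.773 CPM (21.199 to 21.777) and hspb7.L at 9.4452 CPM (0.28767 to 1.4208). NB2 stood apart for hsf2.2.L, at 27.818 CPM (16.173 to 16.908), and for hsp90b1.S, at 396.35 CPM (246.68 to 258.01). In BB4, hspa9.L was at 684.27 CPM (other BB pools 521.84 to 543.64), and in SH4, serpinh1.L was at 22.721 CPM (other SH pools 16.871 to 17.823).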

How the results depend on the processing

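No called result that was followed gene by gene changed direction under any alternative run. Alternatives were run for all members. They were followed gene by gene only for the genes picked by the rules above (the named genes) and for a few entries outside the name pattern. For other called members, such as dnaja3.S, dnajb13.S, dnajc2.L, dnajc9.L and dnajc11.L, whether the call held is not reported here. Of named genes not called, 14 of 41 in NB against BB, 3 of 36 in NB against SH and 11 of 53 in SH against BB took both signs. In NB against BB, 38 members were called (23 higher, 15 lower): leaving out 1 pool gave 22 to 47 calls, 16 to 24 higher and 6 to 23 lower, and without NB1 and BB1 there were 52 calls, 28 of them lower. With the sequencing batch as a term there were 43. Lower calls numbered 8 with library size only and 25 in 1 fit over 12 libraries. In NB against SH, leaving out 1 pool gave 21 to 47 calls, 16 to 32 higher and 5 to 15 lower, against 38, 30 and 8; lower calls numbered 13 by DESeq2, 13 by limma on log2(FPKM + 0.1), 13 in the fit over 12 libraries and 15 without NB1. In SH against BB, leaving out 1 pool gave 1 to 18 calls, 0 to 8 higher and 0 to 14 lower, against 7, 3 and 4. There, DESeq2 gave 22 (7 higher, 15 lower), the fit over 12 libraries 2 (0 lower), omission of BB1 18 (8 higher, 10 lower), and library size only 5 higher and 2 lower. Adding up homeologs took the pairs called in NB against SH to 13 of 51 tested, against 23 with at least 1 copy called on its own. The cause of these changes was not tested. With library size only, the centre of the fold changes over all genes moved to log2 values of 0.13, -0.05 and 0.16 in the 3 comparisons. Of named members and entries called, 16 of 27 in NB against BB, 21 of 32 in NB against SH and 0 of 7 in SH against BB kept their call under each alternative run.

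Replicate numbers did not pair the pools: deviations of same-numbered pools correlated at -0.398 to 0.489. With the replicate number as a block, 24 members were called in NB against BB (18 higher, 6 lower), 31 in NB against SH and 5 in SH against BB.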
